A study of Mus musculus with 9 samples.

Results

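The growth hormone and IGF axis was followed through 10 listed genes of growth hormone receptor signalling, its targets and the IGF binding proteins in mouse liver. They are Ghr, Stat5a, Stat5b, Igf1, Igfals, Igfbp1, Igfbp2, Socs2, Cish and Bcl6, 10 of 21470 genes in the deposited table. All 10 passed the filter on low values that left 10142 genes for testing. Liver RNA was sequenced in 9 libraries, 3 per group: bile duct ligation with ligustilide (LIG20 in the sample titles, called BDL+LIG here), bile duct ligation alone (BDL) and sham operation (sham). Ligation of the bile duct blocks bile flow and causes cholestatic injury and fibrosis, and ligustilide is a phthalide of Angelica and Ligusticum roots. The BDL+LIG and BDL mice shared the ligation. The design text gives the ligustilide dose as 10 mg/kg whereas the titles carry the number 20, and the sources used here do not give strain, age, sex, days after surgery or what the sham mice received. Whether the libraries stem from separate mice is unstated, so p-values measure only the spread between libraries, which may be technical.

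Growth hormone from the pituitary binds its receptor on hepatocytes, and the kinase JAK2 then phosphorylates STAT5, which enters the nucleus and switches on target genes. Among these targets are Igf1, whose expression in liver supplies most circulating IGF1, Igfals, whose product holds IGF1 in a large serum complex, and the feedback inhibitors Socs2 and Cish. In rodents the pulses of growth hormone differ between the sexes, and many liver genes follow them. IGF binding proteins carry IGF1 in blood, and that of Igfbp1 is known as a fast-acting one that insulin suppresses.

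STAT5 binds the letters TTCNNNGAA, and insulin response elements of the Igfbp1 promoter hold TNTTTTG, so the RefSeq windows (GRCm38.p6, 250 bases before to 50 after each start) of 9 members were searched on both strands for both. TTCNNNGAA reads alike on both strands. It was in 5 of the 16 windows of the members, those of Bcl6, Cish and Igfals, while 8.30% of all 32851 windows held it. The windows of Cish and Bcl6 are shown because they held several matches and because STAT5 is known to raise the one gene and lower the other, and that of Igfals because its transcript fell in ligated liver. Capitals mark TTCNNNGAA in the first 3 sequences and TNTTTTG, read on either strand, in the last.
Cish, chr9:107296409-107296708, plus strand: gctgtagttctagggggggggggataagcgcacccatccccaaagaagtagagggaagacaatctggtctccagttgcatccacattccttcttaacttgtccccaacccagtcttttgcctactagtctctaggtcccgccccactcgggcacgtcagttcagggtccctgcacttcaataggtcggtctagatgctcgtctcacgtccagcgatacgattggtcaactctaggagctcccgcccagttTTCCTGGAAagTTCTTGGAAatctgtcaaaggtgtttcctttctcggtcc
Bcl6, chr16:23981234-23981533, minus strand: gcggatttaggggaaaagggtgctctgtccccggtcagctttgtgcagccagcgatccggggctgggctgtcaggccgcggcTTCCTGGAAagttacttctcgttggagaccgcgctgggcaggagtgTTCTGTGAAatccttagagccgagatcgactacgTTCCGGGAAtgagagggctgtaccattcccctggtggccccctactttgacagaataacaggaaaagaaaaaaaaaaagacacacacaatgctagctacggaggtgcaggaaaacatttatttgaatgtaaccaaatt
Igfals, chr17:24877981-24878280, plus strand: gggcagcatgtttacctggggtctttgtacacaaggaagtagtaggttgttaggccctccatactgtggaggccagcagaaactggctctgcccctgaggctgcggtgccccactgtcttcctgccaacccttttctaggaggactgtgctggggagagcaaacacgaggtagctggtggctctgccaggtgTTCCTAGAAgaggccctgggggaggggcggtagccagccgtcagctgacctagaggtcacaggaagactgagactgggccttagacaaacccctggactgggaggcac
Igfbp1, chr11:7197537-7197836, plus strand: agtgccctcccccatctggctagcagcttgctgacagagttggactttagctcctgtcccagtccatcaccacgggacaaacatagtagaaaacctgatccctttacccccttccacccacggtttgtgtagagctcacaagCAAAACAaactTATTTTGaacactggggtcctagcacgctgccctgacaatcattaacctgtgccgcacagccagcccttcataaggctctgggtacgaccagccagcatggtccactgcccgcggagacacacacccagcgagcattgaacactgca
In Cish one match began at the start site and the other 11 bases after it, and 0.457% of all windows held 2 or more matches. The printed Bcl6 window held 3 matches, 168, 122 and 88 bases before the start, and the printed Igfals window 1, 58 bases before it. Another Igfals window held a match 236 bases before its start, and the remaining Igfals window held none. The windows of Ghr and Igf1, whose transcripts were also lower in BDL+LIG than in sham, held no TTCNNNGAA. In Igfbp1, whose level differed most between the groups, TNTTTTG was matched on the reverse strand 108 bases and on the forward strand 97 bases before the start. That motif was in 2 of the 16 windows of the members, the other being that of Cish printed above (TCTTTTG, 138 bases before the start), and in 18.6% of all windows. Of all windows 3.14% held 2 or more. A match is a description of the letters and no evidence of binding in these livers.

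Levels are FPKM, fragment counts divided by gene length and by library total. Each change is the limma estimate on log2(FPKM + 1), first-named group minus second, with its SE, in a fit of all 9 libraries. P-values were adjusted over the 10142 tested genes and called at 0.05. Whole fragments recovered from the values summed to 34815965 to 40780517 per library. Sham library 1 stood apart, with a median chi-square per gene of 18.7 and 23.9 against sham 2 and 3, which differed by 6.73 from each other. The 6 hepatocyte markers summed to 36141 to 45044 FPKM in BDL+LIG, 29768 to 36591 in BDL and 51423 to 59676 in sham, and 5 of bile duct cells to 210 to 451 FPKM in BDL+LIG, 403 to 597 in BDL and 19.3 to 35.4 in sham. In bulk liver, fewer cells of a type and less RNA per cell cannot be told apart. The median tested gene differed by 0.18 between BDL+LIG and BDL, 0.16 between BDL and sham and 0.34 between BDL+LIG and sham, and by -0.03, -0.06 and -0.09 after median-of-ratios scaling. In these comparisons 84.8, 77.2 and 83.0% of the calls were higher as deposited, and 43.7, 49.9 and 43.7% after that scaling, so the members' changes are also given relative to the median gene.

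In ligated liver the growth hormone receptor and the acid-labile subunit were lower than in sham and Igfbp1 and Cish higher, and none of these 4 was called between BDL+LIG and BDL. Between BDL+LIG and BDL, limma called 1 of 10 members, Stat5b, which rose, against 11.8% of all tested genes (9.98% higher, 1.79% lower). Between BDL and sham it called 4 of 10, against 29.7% of all genes. Igfbp1 and Cish rose and Ghr and Igfals fell, beside 22.9% of all genes called higher and 6.76% lower. Between BDL+LIG and sham it called 6 of 10, against 52.6% of all genes. Stat5b, Igfbp1 and Cish rose and Ghr, Igf1 and Igfals fell, beside 43.7% of all genes called higher and 8.92% lower. The libraries of the groups did not overlap for 5 of 10 members between BDL+LIG and BDL (51.2% of all genes), for 6 between BDL and sham (45% of all genes) and for 6 between BDL+LIG and sham (55.4% of all genes). The members' shares thus lay near those of all genes in each comparison, and the 3 comparisons share libraries. The median difference of the members was 0.29, -0.12 and 0.14 in the 3 comparisons, beside 0.18, 0.16 and 0.34 for all genes. Leaving out sham 1 gave 3, 6 and 7 called members, beside 3144, 4668 and 6922 genes in all. Between BDL+LIG and BDL, limma called 40, 0 and 54 genes in all without BDL 1, 2 and 3, against 1194 with all libraries. Without BDL+LIG 1, 2 and 3 it called 716, 289 and 322. Calls of this comparison given below as lost without 1 of these libraries were thus lost along with those of many other genes. Relative to the median tested gene, Stat5b was at 0.38 between BDL+LIG and BDL, and Ghr was at -1.12, Igfals at -1.22, Igfbp1 at 2.33 and Cish at 0.92 between BDL and sham.

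**Figure D1:**
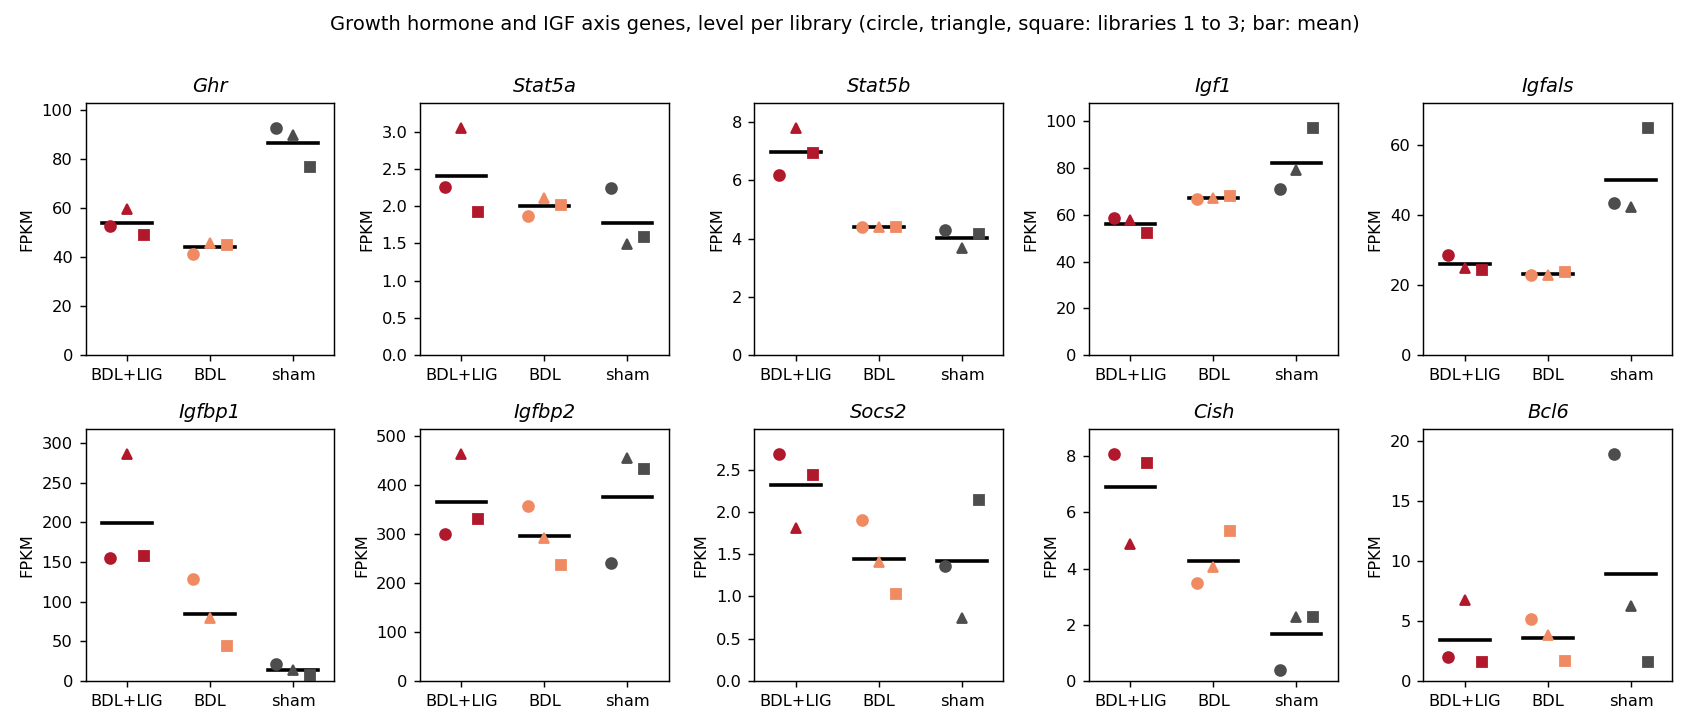
Level of each of the 10 axis genes in FPKM (vertical axes from 0) in the 3 libraries of BDL+LIG, BDL and sham, with bars for the means. Ghr and Igfals are highest in the sham libraries, Igfbp1 is highest in BDL+LIG and lowest in sham without overlap, and Bcl6 spreads 12.2-fold within sham.

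**Figure D2:**
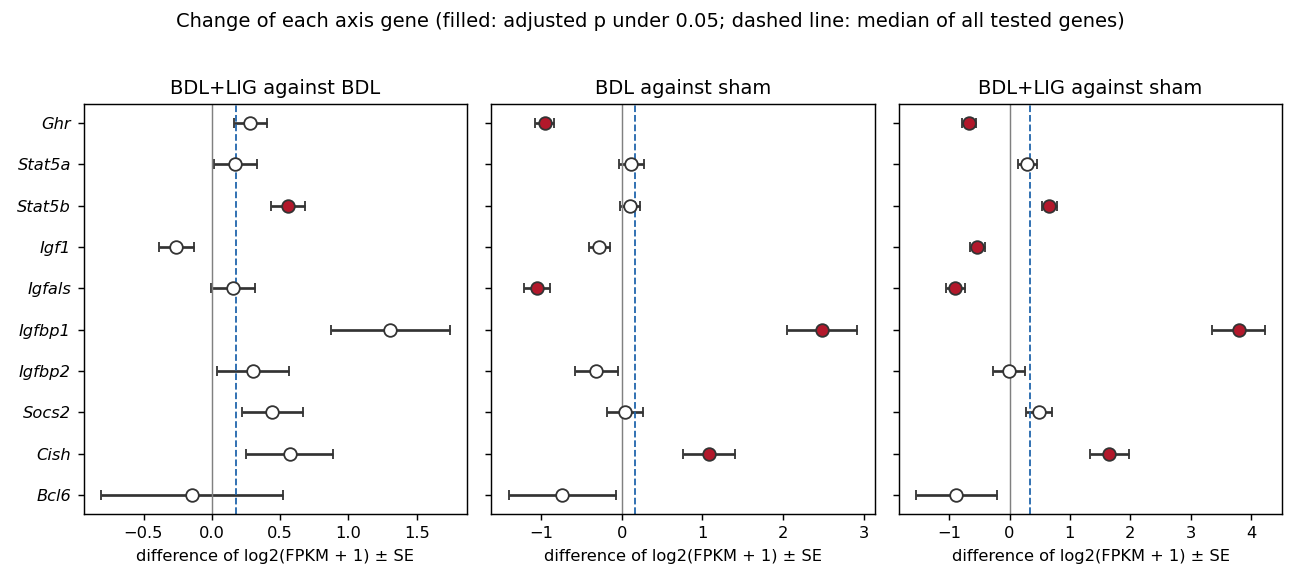
Difference of log2(FPKM + 1) ± SE for each axis gene in the 3 comparisons, with filled points for an adjusted p under 0.05 and a dashed line at the median of all tested genes. Stat5b is the filled point of BDL+LIG against BDL, and Ghr (-0.95), Igfals (-1.05), Igfbp1 (2.49) and Cish (1.08) are those of BDL against sham.

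The receptor gene fell in both ligated groups against sham. Ghr, the growth hormone receptor, was at 52.9, 59.7 and 48.9 FPKM in BDL+LIG, at 41.4, 45.8 and 44.8 FPKM in BDL and at 92.7, 89.9 and 76.8 FPKM in sham. Every sham library lay above every ligated one, and the BDL+LIG libraries lay just above the BDL ones without overlap. Ghr averaged 44.0 ± 2.33 FPKM in BDL and 86.5 ± 8.48 FPKM in sham (SD, n = 3 libraries each), a change of -0.95 ± 0.12 with an adjusted p of 0.00026 in limma. Leaving out any 1 library gave -1.04 to -0.90. The difference between BDL+LIG and BDL was 0.28 ± 0.12 (adjusted p 0.14), and 0.02 after median-of-ratios scaling. Against sham, BDL+LIG differed by -0.67 ± 0.12 (adjusted p 0.0011), and -1.22 with that scaling or -0.44 after rescaling to TPM. Set against Hnf4a, a transcription factor of hepatocytes, the ratio Ghr to Hnf4a averaged 0.377 ± 0.0677 in BDL+LIG, 0.393 ± 0.0147 in BDL and 0.746 ± 0.116 in sham. Hnf4a itself differed by 0.36 between BDL+LIG and BDL (adjusted p 0.078 in limma), so ratios to it also carry its change. The 6 hepatocyte markers given above also summed to less in the ligated groups than in sham. Of these, 2 were called lower between BDL and sham, beside 6.76% of all genes. Between BDL+LIG and sham 3 were called lower and 1 higher, beside 8.92% and 43.7% of all genes. The part of hepatocyte content in the fall of Ghr was not tested.

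Of the STAT5 genes, Stat5b passed the test and Stat5a did not. Stat5b, the main STAT5 of liver, was at 6.20, 7.79 and 6.93 FPKM in BDL+LIG, at 4.39, 4.41 and 4.41 FPKM in BDL and at 4.28, 3.67 and 4.16 FPKM in sham. All 3 BDL+LIG libraries were above the rest, and the BDL libraries were almost equal. Stat5b rose by 0.56 ± 0.12 between BDL+LIG and BDL (adjusted p 0.023 in limma). The call was lost under median-of-ratios scaling (0.33, adjusted p 0.10), under quantile normalization (0.34, adjusted p 0.080) and without BDL 1 (0.56), BDL 2 (0.56), BDL 3 (0.56), BDL+LIG 2 (0.48) or BDL+LIG 3 (0.56). Against sham, Stat5b rose in BDL+LIG by 0.66 ± 0.12 (adjusted p 0.0014), and by 0.19 and 0.24 with those scalings, where it was not called. Stat5a, its close relative, was at 2.26, 3.05 and 1.93 FPKM in BDL+LIG, at 1.87, 2.11 and 2.02 FPKM in BDL and at 2.24, 1.50 and 1.59 FPKM in sham. Its libraries overlapped in all 3 comparisons, and its differences of 0.17, 0.12 and 0.29 had adjusted p-values of 0.47, 0.61 and 0.14. Without sham 1 the last was 0.41 with an adjusted p of 0.028. It was 0.53 after rescaling to TPM (adjusted p 0.049), but -0.08 with median-of-ratios scaling and -0.18 with quantile normalization, neither of them called. Some fragments of these similar genes may have been split between them, which the deposited values cannot show.

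Around the receptor, 9 of 10 listed genes of the receptor, JAK2 and STAT5 step were tested. Stat5b rose between BDL+LIG and BDL, and between BDL and sham Grb2 rose and Ghr fell, beside 11.8% and 29.7% of all genes. The fit without sham 1 added Jak2, which was higher between BDL and sham. Their list medians were 0.24 and 0.12, beside 0.18 and 0.16 for all genes. Jak2, the kinase bound to the receptor, was at 1.47, 1.56 and 1.36 FPKM in BDL+LIG, 0.881, 1.21 and 1.24 FPKM in BDL and 0.977, 0.542 and 0.524 FPKM in sham. The BDL+LIG libraries were above all sham libraries, and Jak2 rose by 0.56 ± 0.14 there (adjusted p 0.0070), but not under quantile normalization (0.14). Grb2, an adaptor that links receptors to Ras, rose by 0.47 ± 0.11 between BDL and sham (adjusted p 0.0086), a call lost without BDL 3 (0.42) and with median-of-ratios scaling (0.20).

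The hormone gene passed the test in 1 of the 3 comparisons. Igf1 was at 58.6, 57.9 and 52.1 FPKM in BDL+LIG, at 66.7, 67.4 and 68.1 FPKM in BDL and at 71.0, 79.1 and 97.2 FPKM in sham. The groups did not overlap, with BDL+LIG lowest, BDL between and sham highest and widest in spread. Igf1 fell by 0.53 between BDL+LIG and sham (SE 0.13, adjusted p 0.0055 in limma). With median-of-ratios scaling that value was -1.08, and after rescaling to TPM -0.30. The single steps did not pass, at -0.26 ± 0.13 between BDL+LIG and BDL (adjusted p 0.19) and -0.27 ± 0.13 between BDL and sham (adjusted p 0.13). Without sham 1 the step between BDL and sham passed (-0.37, adjusted p 0.024), and with the 2 groups fitted alone so did that between BDL+LIG and BDL (-0.26, adjusted p 0.040). The ratio of Igf1 to Hnf4a averaged 0.392 ± 0.0421 in BDL+LIG, 0.602 ± 0.0106 in BDL and 0.712 ± 0.140 in sham. Between BDL+LIG and BDL both genes moved this ratio, Hnf4a by 0.36 and Igf1 by -0.26. After median-of-ratios scaling these differences were 0.09 and -0.52, so each gene's share depends on the scaling.

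Igfals, the acid-labile subunit that joins IGF1 and a binding protein in a ternary complex, was at 28.7, 25.0 and 24.3 FPKM in BDL+LIG, at 22.8, 23.0 and 23.8 FPKM in BDL and at 43.4, 42.3 and 64.9 FPKM in sham. All ligated libraries lay below all sham ones, and the BDL+LIG libraries lay above the BDL libraries by a small margin. Igfals averaged 23.2 ± 0.503 FPKM in BDL and 50.2 ± 12.7 FPKM in sham (SD, n = 3 libraries each), a change of -1.05 ± 0.16 with an adjusted p of 0.00087 in limma. It fell by 0.90 between BDL+LIG and sham (SE 0.16, adjusted p 0.0011), and by 1.44 with median-of-ratios scaling. The difference between BDL+LIG and BDL, 0.15 ± 0.16, had an adjusted p of 0.53.

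Igfbp1 was the member that differed most between the groups. It was at 155, 286 and 158 FPKM in BDL+LIG, at 129, 79.0 and 44.3 FPKM in BDL and at 21.4, 14.0 and 6.92 FPKM in sham. The 3 groups did not overlap, yet BDL+LIG 1 and 3 lay close above BDL 1. Igfbp1 rose by 2.49 ± 0.44 between BDL and sham (adjusted p 0.0020 in limma) and by 3.80 ± 0.44 between BDL+LIG and sham (adjusted p 8.4e-05). Its mean in BDL was 5.96 times that in sham. The difference between BDL+LIG and BDL, 1.31 ± 0.44, missed the threshold (adjusted p 0.072). It passed when rescaled to TPM (1.46, adjusted p 0.048), with the replicate block (adjusted p 0.042) and in the 2 groups alone (adjusted p 0.034). It also passed without sham 1 (adjusted p 0.032) and without sham 3 (adjusted p 0.044), where only the shared spread changes. It did not pass with median-of-ratios scaling (1.04, adjusted p 0.14), quantile normalization (adjusted p 0.063), voom (adjusted p 0.053) or no filter (adjusted p 0.18). Nor did it pass without any 1 of the other libraries (0.92 to 1.68). The ratio of Igfbp1 to Igf1, per length in FPKM, averaged 3.54 ± 1.23 in BDL+LIG, 1.25 ± 0.642 in BDL and 0.183 ± 0.116 in sham (SD, n = 3 libraries each).

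Igfbp2, an abundant binding protein of liver, was at 300, 463 and 331 FPKM in BDL+LIG, at 357, 291 and 237 FPKM in BDL and at 240, 455 and 432 FPKM in sham. Its libraries overlapped in every comparison. The differences were 0.30 ± 0.26 between BDL+LIG and BDL, -0.31 ± 0.26 between BDL and sham and -0.01 ± 0.26 between BDL+LIG and sham, with adjusted p-values of 0.45, 0.41 and 0.98. Sham 1 was the lowest sham library, and without it the difference between BDL and sham was -0.61 with an adjusted p of 0.038.

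Of the listed IGF binding proteins, 8 of 9 were tested. Between BDL+LIG and BDL 1 rose (Igfbp3), and between BDL and sham 3 rose (Igfbp1, Igfbp6, Igfbp7) and Igfals fell, beside 11.8% and 29.7% of all genes. Leaving out sham 1, limma called Igfbp1, Igfbp3 and Igfbp5 higher in the first, and Igfbp1, Igfbp6 and Igfbp7 higher and Igfals and Igfbp2 lower in the second. The second comparison had a list median of -0.21 beside 0.16 for all genes. Igfbp7, a secreted protein that binds IGFs weakly, was at 79.6, 131 and 89.3 FPKM in BDL+LIG, at 61.6, 68.0 and 65.1 FPKM in BDL and at 27.3, 20.3 and 35.0 FPKM in sham. Its groups did not overlap, and it rose by 1.24 ± 0.21 between BDL and sham (adjusted p 0.0018) and by 1.82 ± 0.21 between BDL+LIG and sham (adjusted p 9.3e-05). Markers of stellate cells and sinusoidal endothelium summed to 22.6 to 41.5 and 35.7 to 55.7 FPKM in BDL+LIG, 15.8 to 21.5 and 22.8 to 25.6 FPKM in BDL and 3.36 to 9.51 and 19.0 to 21.8 FPKM in sham. Their part in Igfbp7 and Igfbp3 was not tested. Igfbp3, the partner of IGF1 and the acid-labile subunit, was at 1.76, 2.45 and 2.06 FPKM in BDL+LIG, at 0.664, 0.648 and 0.942 FPKM in BDL and at 2.76, 0.822 and 1.67 FPKM in sham. It rose by 0.82 ± 0.23 between BDL+LIG and BDL (adjusted p 0.046), with the sham libraries on both sides. That call was lost without any single BDL or BDL+LIG library (0.74 to 0.90), under median-of-ratios (0.64) or quantile (0.57) scaling, without a filter and with the replicate number as a block (both 0.82). Igfbp6 rose by 0.59 ± 0.18 between BDL and sham (adjusted p 0.031), a call lost without BDL 2 (0.48), BDL 3 (0.58) or sham 2 (0.64), under median-of-ratios (0.44) or quantile (0.38) scaling, by voom (1.27), and, at 0.59, without a filter and in the 2 groups alone, and its levels lay near 1 FPKM. Igfbp4, the most abundant binding protein in the table, stayed within 529 to 713 FPKM in all 9 libraries, and its difference of -0.11 ± 0.14 between BDL and sham had an adjusted p of 0.61.

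**Figure D3:**
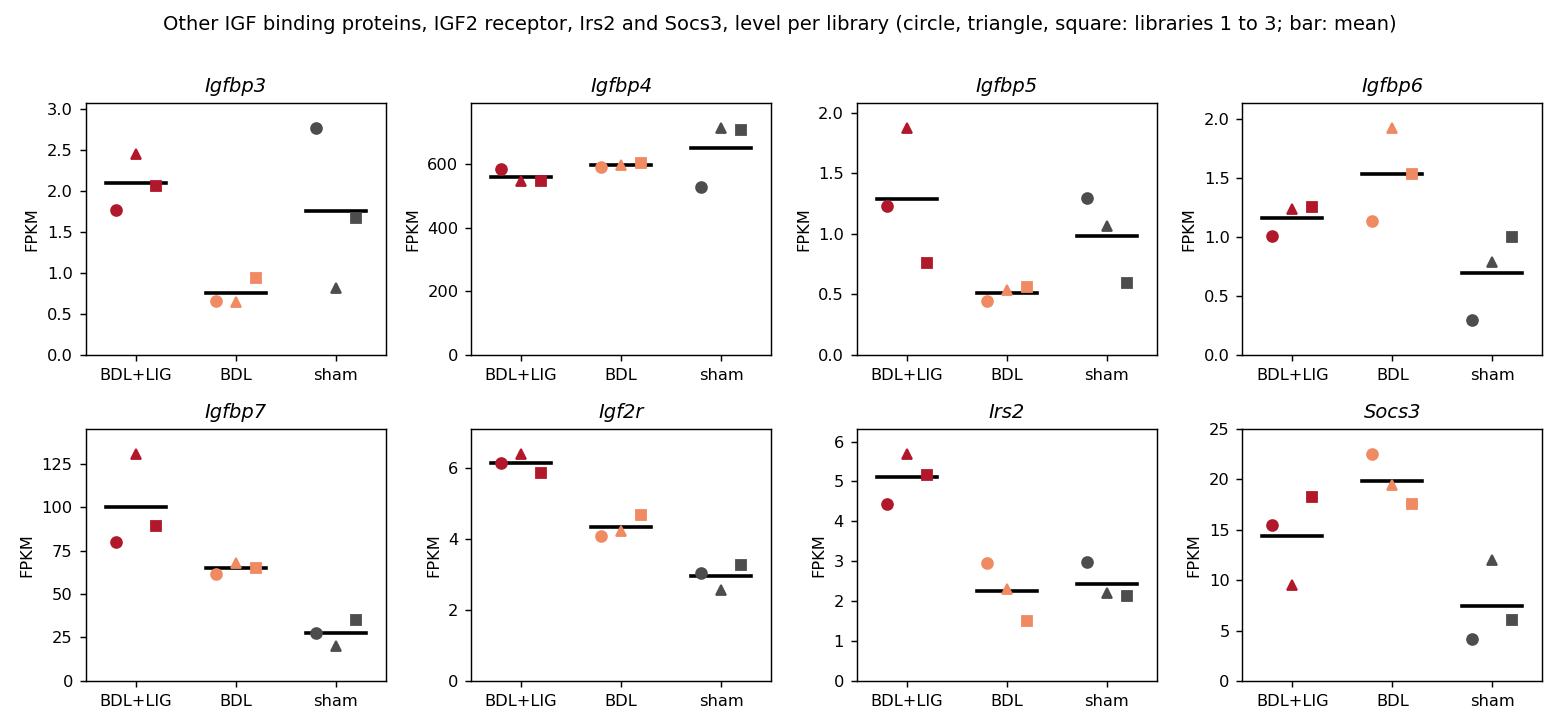
FPKM per library (vertical axes from 0) of 5 further IGF binding proteins, the IGF2 receptor gene Igf2r, Irs2 and Socs3 in BDL+LIG, BDL and sham, with bars for the means. Igfbp7 and Igf2r separate all 3 groups, Irs2 is highest in BDL+LIG, and Socs3 has its highest mean in BDL.

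Hepatocytes themselves carry little IGF1 receptor. Its gene Igf1r lay at 0.191 to 0.295 FPKM in BDL+LIG, 0.0850 to 0.135 FPKM in BDL and 0.0479 to 0.144 FPKM in sham, under the filter. Igf2, the fetal IGF, reached 0.145 FPKM in its highest library. Of the 5 tested ligand and receptor genes, Irs2 was called between BDL+LIG and BDL and Igf2r between BDL and sham, beside 11.8% and 29.7% of all genes. Leaving out sham 1, limma called 3 of 5 in each, Igf2r, Insr and Irs2 higher between BDL+LIG and BDL, and Igf2r and Insr higher and Igf1 lower between BDL and sham. Igf2r, which clears IGF2 and carries lysosomal enzymes, was at 6.16, 6.40 and 5.86 FPKM in BDL+LIG, at 4.08, 4.24 and 4.68 FPKM in BDL and at 3.03, 2.55 and 3.27 FPKM in sham. It rose by 0.43 ± 0.12 between BDL and sham (adjusted p 0.023), a call lost without BDL 2 (0.45), BDL 3 (0.39) or sham 2 (0.36), under median-of-ratios (0.21) or quantile (0.22) scaling and in the 2 groups alone (0.43). Irs2, an adaptor of the insulin and IGF1 receptors, was at 4.44, 5.69 and 5.17 FPKM in BDL+LIG, at 2.96, 2.30 and 1.50 FPKM in BDL and at 2.99, 2.22 and 2.12 FPKM in sham. Every BDL+LIG library was above the others, and Irs2 rose by 0.93 ± 0.18 between BDL+LIG and BDL (adjusted p 0.018). Without BDL 1 (1.08), BDL 2 (0.95), BDL 3 (0.75), BDL+LIG 2 (0.86) or BDL+LIG 3 (0.92) it was not called.

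Of the feedback inhibitors, Cish passed the test against sham and Socs2 did not. Cish, a SOCS family protein that STAT5 induces and that blocks STAT5 at the receptor, was at 8.09, 4.89 and 7.78 FPKM in BDL+LIG, at 3.47, 4.05 and 5.34 FPKM in BDL and at 0.397, 2.28 and 2.29 FPKM in sham. All ligated libraries were above all sham ones, sham 1 was far below the others, and BDL+LIG overlapped with BDL. Behind these levels stood 62 fragments in sham 1 and 343 to 1390 in the other libraries. Cish rose by 1.08 ± 0.32 between BDL and sham (adjusted p 0.027 in limma) and by 1.65 ± 0.32 between BDL+LIG and sham (adjusted p 0.0017). The first call was lost without BDL 2 (1.11), without BDL 3 (0.94), under median-of-ratios scaling or quantile normalization (0.87 each) and without a filter (1.08). Without sham 1 it was 0.67 and held (adjusted p 0.025), and voom on the recovered fragments gave 1.72. The difference between BDL+LIG and BDL, 0.57 ± 0.32, had an adjusted p of 0.24, and of 0.041 without sham 1. Cish and Ghr thus went opposite ways between BDL and sham.

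Socs2, the inhibitor whose loss makes mice grow large, was at 2.69, 1.81 and 2.44 FPKM in BDL+LIG, at 1.90, 1.41 and 1.02 FPKM in BDL and at 1.36, 0.740 and 2.15 FPKM in sham. Its libraries overlapped in every comparison. The differences of 0.44 ± 0.22, 0.04 ± 0.22 and 0.49 ± 0.22 between BDL+LIG and BDL, BDL and sham, and BDL+LIG and sham had adjusted p-values of 0.19, 0.90 and 0.088. Without sham 3 the last was 0.70 with an adjusted p of 0.022. It also depended on the scaling, at 0.78 after rescaling to TPM (adjusted p 0.027), 0.14 with median-of-ratios scaling and 0.02 with quantile normalization. Socs3, a SOCS protein that cytokines induce, was at 15.5, 9.48 and 18.3 FPKM in BDL+LIG, at 22.5, 19.4 and 17.5 FPKM in BDL and at 4.13, 12.0 and 6.08 FPKM in sham. The BDL libraries lay above all sham ones, and Socs3 rose by 1.41 ± 0.32 there (adjusted p 0.0077). Markers of Kupffer cells and macrophages summed to 327 to 729 FPKM in BDL+LIG, 248 to 369 FPKM in BDL and 59.2 to 125 FPKM in sham, and their part in Socs3 was not tested.

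Of 14 tested negative regulators, 4 rose between BDL+LIG and BDL (Socs7, Ptpn11, Sh2b3, Cbl) and 5 between BDL and sham (Socs3, Cish, Ptpn1, Ptpn6, Ptpn11), beside 9.98% and 22.9% of all genes called higher. Their list medians were 0.38 and 0.24, beside 0.18 and 0.16 for all genes. Ptpn1 encodes the phosphatase PTP1B, which acts on JAK2. It was at 8.35, 11.7 and 12.0 FPKM in BDL+LIG, at 7.17, 8.37 and 9.12 FPKM in BDL and at 3.29, 3.58 and 3.84 FPKM in sham. The sham libraries were the lowest throughout, and Ptpn1 rose by 1.01 ± 0.15 between BDL and sham (adjusted p 0.00094). Ptpn11, the phosphatase SHP2, which also carries positive signals, rose by 0.65 ± 0.14 between BDL+LIG and BDL (adjusted p 0.022). The ubiquitin ligase gene Cbl rose by 0.69 ± 0.14 (adjusted p 0.017) and Socs7 by 0.59 ± 0.12 (adjusted p 0.020). Without any 1 BDL library, or without BDL+LIG 2 or 3, these 3 calls were lost at 0.53 to 0.72 for Ptpn11, 0.67 to 0.73 for Cbl and 0.55 to 0.62 for Socs7, as was that of Sh2b3 (0.55) at 0.48 to 0.59. Between BDL and sham, Ptpn6 (0.60) was lost without BDL 2, BDL 3 or sham 2 (0.53 to 0.57) and Ptpn11 (0.48) without BDL 2, BDL 3 or sham 3 (0.41 to 0.50). In the fit without sham 1, 5 and 6 of the 14 were called higher. With median-of-ratios scaling 3 of the 4 between BDL+LIG and BDL were not called, Ptpn11 (0.40), Cbl (0.53) and Sh2b3 (0.32), nor were Ptpn6 (0.34) and Ptpn11 (0.23) between BDL and sham. Under quantile normalization Cbl (0.45), Sh2b3 (0.31), Ptpn6 (0.41) and Ptpn11 between BDL and sham (0.27) were not called, and with the replicate number as a block Sh2b3 (0.55) was not.

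Bcl6, a repressor that growth hormone lowers in mouse liver and that binds many STAT5 sites, varied mainly within the groups. It was at 1.99, 6.73 and 1.55 FPKM in BDL+LIG, at 5.18, 3.79 and 1.69 FPKM in BDL and at 18.9, 6.21 and 1.55 FPKM in sham. Its highest library was 4.35, 3.07 and 12.2 times its lowest within these groups, so all groups overlapped. The differences of -0.14 ± 0.67, -0.73 ± 0.67 and -0.88 ± 0.67 between BDL+LIG and BDL, BDL and sham, and BDL+LIG and sham had adjusted p-values of 0.90, 0.44 and 0.29. Without sham 3 the last was -1.62 with an adjusted p of 0.040, and without sham 1 it was -0.14. Within BDL the order of the libraries by Cish was the reverse of that by Bcl6. Sham 1 had the highest Bcl6 and the lowest Cish of all 9 libraries, while sham 2 and 3 were alike in Cish and apart in Bcl6. BDL+LIG 2 had the highest Bcl6 and the lowest Cish of its group. Igfbp1 followed the order of Bcl6 within BDL and within sham. With 3 libraries a group these orders are descriptions.

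**Figure D4:**
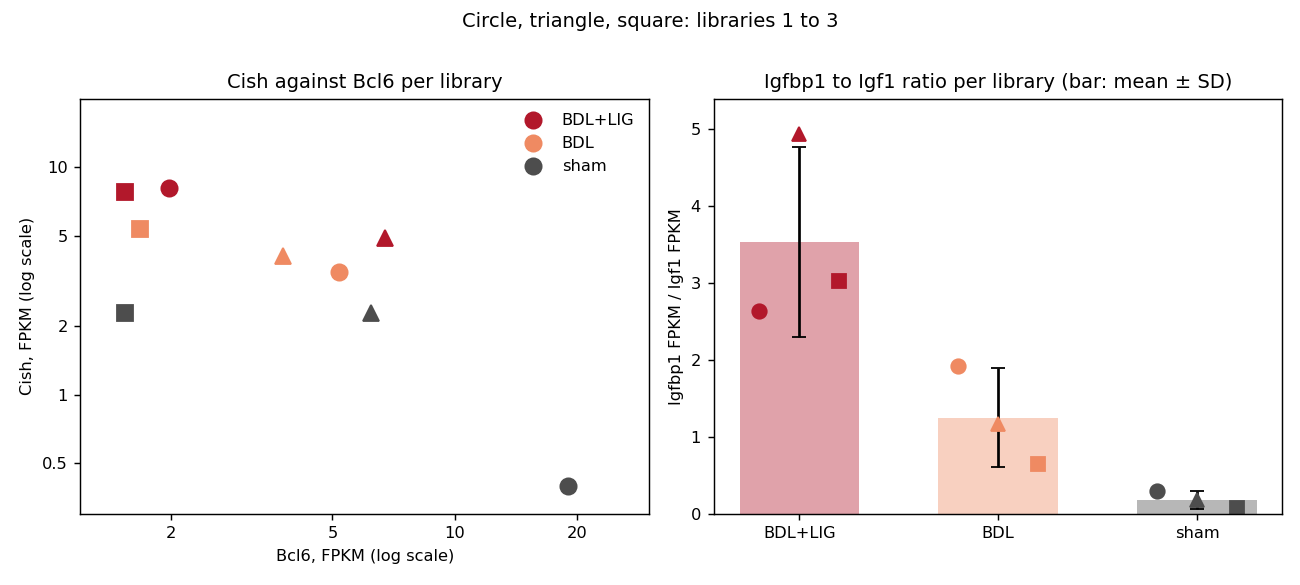
Left, Cish against Bcl6 in FPKM (both axes log) in the 9 libraries. Right, the ratio of Igfbp1 to Igf1 per library with bars for the mean ± SD. Sham 1 lies at the lower right with 18.9 FPKM of Bcl6 and 0.397 FPKM of Cish, and the ratio averages 3.54 in BDL+LIG, 1.25 in BDL and 0.183 in sham.

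Of 10 tested transcription factors tied to growth hormone, limma called 0 between BDL+LIG and BDL (3 at an unadjusted p under 0.05) and 1 between BDL and sham, beside 11.8% and 29.7% of all genes. Leaving out sham 1, it called 3 in each, Onecut1, Hnf4a and Trim24 higher between BDL+LIG and BDL, and Onecut2 and Trim24 higher and Cebpa lower between BDL and sham. The 1 call with all libraries was Cebpa, a hepatocyte factor, at 92.3, 80.9 and 111 FPKM in BDL+LIG, 92.3, 88.2 and 88.7 FPKM in BDL and 163, 167 and 267 FPKM in sham. The ligated libraries were all below the sham ones, and Cebpa fell by 1.10 between BDL and sham (SE 0.19, adjusted p 0.0019). Onecut1, a factor that growth hormone raises in rat liver, was at 2.19, 1.68 and 2.45 FPKM in BDL+LIG, 0.658, 0.728 and 0.740 FPKM in BDL and 2.20, 0.496 and 2.48 FPKM in sham. Its BDL+LIG libraries lay above the BDL ones, with a difference of 0.86 ± 0.27 and an adjusted p of 0.065, and sham 2 was the lowest of all. This difference passed without sham 1, 2 or 3, each left out in turn (0.86 each time), where only the shared spread changes. It also passed with TPM (1.19) and in the 2 groups alone (0.86). It did not pass with median-of-ratios scaling (0.68, adjusted p 0.16), quantile normalization (0.62, adjusted p 0.16) or voom (1.56, adjusted p 0.085). Cux2, a factor more abundant in female liver, was under the filter, at 4.17, 0.324 and 2.57 FPKM in BDL+LIG, 0.212, 0.418 and 0.429 FPKM in BDL and 0.0745, 0.0153 and 0.0124 FPKM in sham. BDL+LIG 1 and 3 carried its highest levels.

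Genes more abundant in male liver, which follow the male pulses, had the largest median change between BDL and sham of the lists. The labels do not give the sex, but in each of the 9 libraries 4 Y-linked genes (Ddx3y, Eif2s3y, Kdm5d, Uty) were at 0.436 FPKM or more and Xist at 0.0195 FPKM or less, chosen after their values were seen. Of 21 tested genes more abundant in male liver, 5 fell between BDL+LIG and BDL (Mup3, Mup11, Mup15, Mup20, Cyp4a12a) and 18 between BDL and sham, beside 1.79% and 6.76% of all genes. Their list medians were -0.27 and -3.40, beside 0.18 and 0.16 for all genes. Hsd3b5, a steroid-metabolising enzyme, was at 0.0622, 0.0789 and 0.0471 FPKM in BDL+LIG, at 0.0915, 0.214 and 0.304 FPKM in BDL and at 161, 211 and 243 FPKM in sham. It was near 0 in every ligated library, and fell by 7.40 between BDL and sham (SE 0.16, adjusted p 2.5e-09). Its BDL levels lay under the pseudocount of 1 FPKM, which limits this value and its SE. By voom on the recovered fragments the change was -10.1 (adjusted p 4.2e-06). The bile acid and oxysterol hydroxylase gene Cyp7b1 fell by 3.40 (SE 0.19, adjusted p 2.0e-06), to 11.0 ± 0.307 FPKM in BDL, against 129 ± 36.9 FPKM in sham (SD, n = 3 libraries each). In BDL+LIG it averaged 12.4 ± 1.42 FPKM.

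Mup3, a major urinary protein gene, was at 40.7, 93.2 and 49.0 FPKM in BDL+LIG, at 198, 271 and 309 FPKM in BDL and at 7781, 9771 and 10839 FPKM in sham. The 3 groups were far apart, and Mup3 fell by 5.19 between BDL and sham (SE 0.29, adjusted p 2.0e-06) and by a further 2.14 between BDL+LIG and BDL (SE 0.29, adjusted p 0.0073). The second call was lost without BDL 2 (-2.09), where 0 genes in all were called. Cyp4a12a, a fatty acid hydroxylase, was at 4.63, 5.08 and 3.76 FPKM in BDL+LIG, at 14.5, 12.6 and 12.1 FPKM in BDL and at 188, 104 and 237 FPKM in sham. It too stepped down over the 3 groups, by 3.58 between BDL and sham (SE 0.25, adjusted p 5.95e-06) and by 1.36 between BDL+LIG and BDL (SE 0.25, adjusted p 0.015), a call lost without BDL 1 (-1.29), BDL 2 (-1.39) or BDL 3 (-1.41). Mup20 was not among the genes that fell between BDL and sham, at 730, 1688 and 1284 FPKM in BDL+LIG, 3229, 3007 and 2679 FPKM in BDL and 2328, 2504 and 2779 FPKM in sham. Its BDL libraries overlapped with sham, and its fall of 1.34 between BDL+LIG and BDL (SE 0.27, adjusted p 0.018) was lost without any 1 BDL library (-1.42 to -1.28), with quantile normalization (-1.09) and without a filter (-1.34). The calls of Mup11 (-1.96) and Mup15 (-1.58) between these groups were lost without any 1 BDL or BDL+LIG library (-2.40 to -1.70 and -1.89 to -1.17), and that of Mup11 also without sham 2 (-1.96). They were also lost under median-of-ratios scaling (-2.11 for Mup11 and -1.66 for Mup15), by voom (-2.54 and -2.63), without a filter and with a mean of 5 FPKM as the filter (-1.96 and -1.58 in both). Leaving out sham 1, limma called 7 of the 21 genes lower and 1 higher (Cyp2d9) between BDL+LIG and BDL. Between BDL and sham it called 18 lower. In all, 3144 and 4668 genes were called in these comparisons in that fit, 83.6 and 79.9% of them higher. The sum of the hepatocyte markers was also lower in the ligated groups than in sham, as given above. Of these 6 markers, 2 were called lower between BDL and sham, beside 6.76% of all genes. Between BDL+LIG and sham 3 of them were called lower and 1 higher, beside 8.92% and 43.7% of all genes. The part of hepatocyte content in these falls was not tested. Mup genes are near-identical copies, as are several of the Cyp4a and Serpina1 genes, so the split of reads among them is uncertain.

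Genes more abundant in female liver did not move as 1 group. Of 23 listed, 12 were tested. Between BDL+LIG and BDL 2 rose (Cyp2b10, Acot3), and between BDL and sham 4 rose (Cyp4a14, Fmo2, Sult1e1, Atp6v0d2) and 2 fell (Cyp2c40, Cyp2c69). Of all genes 9.98% were called higher in the first comparison, and 22.9% higher and 6.76% lower in the second. The list medians were 0.38 and -0.06, beside 0.18 and 0.16 for all genes, and without sham 1 they were 0.38 and 0.15, with 3 called higher in the first (Abcd2 besides) and as many calls in the second. Atp6v0d2, a subunit of the vacuolar proton pump, was at 9.99, 8.62 and 8.48 FPKM in BDL+LIG, 10.8, 10.3 and 7.80 FPKM in BDL and 1.08, 0.521 and 0.317 FPKM in sham. Its ligated libraries were all above sham, with a rise of 2.71 ± 0.19 between BDL and sham (adjusted p 5.7e-06), and 4.07 by voom on fragments. Cyp2c40 fell by 2.20 between BDL and sham (SE 0.24, adjusted p 8.9e-05). Acot3, a peroxisomal thioesterase, was at 14.2, 5.63 and 5.78 FPKM in BDL+LIG, 0.899, 0.980 and 1.11 FPKM in BDL and 1.71, 1.42 and 0.659 FPKM in sham. The BDL+LIG libraries lay far above the rest, and Acot3 rose by 2.14 ± 0.30 between BDL+LIG and BDL (adjusted p 0.0079). That call was lost without BDL 2 (2.14), where 0 genes in all were called. Cyp2b10 (1.14) lost its call without BDL 1, 2 or 3, BDL+LIG 2 or 3, or sham 2 (0.88 to 1.41), under median-of-ratios (0.94) or quantile (0.90) scaling, with the other pseudocounts (1.51 and 2.20), by voom (2.53), with the replicate block and without a filter (1.14 in both), and Sult1e1 (1.75) without BDL 2 or 3 or sham 2 or 3 (1.65 to 1.72) and without a filter (1.75).

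**Figure D5:**
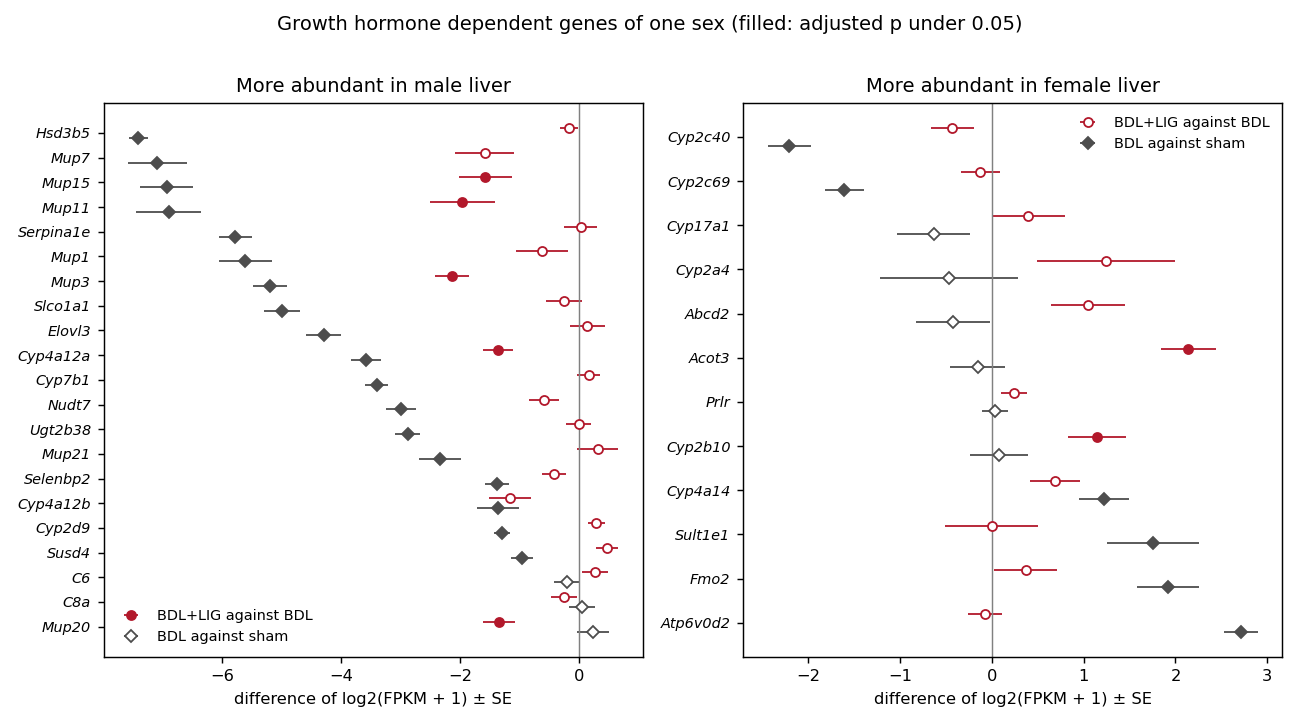
Difference of log2(FPKM + 1) ± SE of tested growth hormone dependent genes more abundant in male (left) or female (right) liver, for BDL+LIG against BDL (circles) and BDL against sham (diamonds), filled where the adjusted p was under 0.05. The diamonds of 18 of 21 male genes are filled and on the negative side, and those of the female genes lie on both sides of 0.

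Of 7 tested liver genes linked to growth hormone resistance, 4 fell between BDL and sham (Klb, Egfr, Lifr, Leap2) and 2 rose (Cd36, Pparg), beside 6.76% of all genes called lower and 22.9% higher. Between BDL+LIG and sham 3 fell (Egfr, Lifr, Leap2) and 2 rose. The first comparison had a list median of -1.02, or -0.58 without sham 1 with as many calls, beside 0.16 for all genes. Lifr, a cytokine receptor chain, was at 5.80, 6.70 and 3.89 FPKM in BDL+LIG, at 3.84, 3.72 and 4.12 FPKM in BDL and at 32.2, 20.2 and 18.5 FPKM in sham. Sham libraries were all above the others, and Lifr fell by 2.29 between BDL and sham (SE 0.22, adjusted p 4.2e-05). Egfr, the epidermal growth factor receptor, whose liver level needs growth hormone in mice, was at 19.0, 23.8 and 20.2 FPKM in BDL+LIG, 27.1, 25.4 and 23.7 FPKM in BDL and 55.2, 57.2 and 45.1 FPKM in sham. It fell by 1.02 between BDL and sham (SE 0.13, adjusted p 0.00030), about as far as Ghr on this scale. Leap2, an antagonist of the ghrelin receptor, fell by 2.51 (SE 0.34, adjusted p 0.00040), to 12.0 ± 0.741 FPKM in BDL, against 77.0 ± 32.2 FPKM in sham (SD, n = 3 libraries each). Cd36, a fatty acid transporter, rose by 2.93 ± 0.20 (adjusted p 5.1e-06), to 18.1 ± 3.08 FPKM in BDL, against 1.55 ± 0.687 FPKM in sham. Klb, the coreceptor of FGF21 on hepatocytes, was at 4.40, 3.40 and 3.89 FPKM in BDL+LIG, at 1.78, 2.16 and 2.10 FPKM in BDL and at 5.42, 3.93 and 3.13 FPKM in sham. The BDL libraries were the lowest, and BDL+LIG overlapped with sham. Klb fell by 0.75 between BDL and sham (SE 0.17, adjusted p 0.0081) and rose by 0.70 ± 0.17 between BDL+LIG and BDL (adjusted p 0.031), a call lost without any 1 BDL or BDL+LIG library (0.62 to 0.77), under median-of-ratios (0.49) or quantile (0.45) scaling, and, at 0.70, with the replicate number as a block and without a filter. Pparg, a regulator of fat storage, rose by 0.51 ± 0.16 between BDL and sham (adjusted p 0.035), a call lost without BDL 2 (0.46), BDL 3 (0.49), BDL+LIG 3 (0.51) or sham 2 (0.36), under median-of-ratios (0.30) or quantile (0.29) scaling, and, at 0.51, with the replicate number as a block, without a filter and in the 2 groups alone.

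Patterns were compared by root mean square difference of standardised log2(FPKM + 1) over the 9 libraries. The search covered tested genes with a mean of at least 5 FPKM, 5292 for Igf1 and Igfbp1 and 5293 for Socs2. The genes with a pattern most like Igf1 were Ptms (0.12 SD units), Chchd10 (0.21) and Lmf1 (0.21). Those most like Igfbp1 were Atp6v0c (0.18), Igsf8 (0.19) and Kmt5a (0.20), and those most like Socs2 were Bsdc1 (0.26), Sec14l2 (0.44) and Btd (0.49). Ptms was at 364, 356 and 317 FPKM in BDL+LIG, 469, 449 and 434 FPKM in BDL and 476, 588 and 848 FPKM in sham. It had the same steps and the same wide sham group as Igf1, which its choice by pattern implies.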

How the data were processed

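Liver RNA of 3 BDL+LIG, 3 BDL and 3 sham libraries was sequenced. The authors deposited 1 table of FPKM for 21470 genes. The submitters' processing notes name fastp, HISAT2 2.1.0, DESeq2 and GRCm39. Neither annotation nor counter is given in the sources used here. Groups and numbers came from the titles. Whole fragments were recovered for 19449 of 19449 genes above 0 in at least 2 libraries (100%, within 0.02 fragments), which gave depths, gene lengths and the voom alternative.

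Genes reaching 1 FPKM in 3 or more libraries entered limma 3.58.1 in R 4.3.3 (eBayes with trend, pseudocount 1 FPKM, all 9 libraries in 1 fit, Benjamini-Hochberg over 10142 genes). The test was run on simulated counts of 10142 genes, with 100 changed 2-fold and 100 changed 4-fold in BDL+LIG. It called 100% of the changed genes the right way, and 2 unchanged ones. The simulation used 1 spread setting for all genes and no outlying library such as sham 1, so it does not cover these features of the data. An exact permutation test of 3 against 3 libraries cannot give a two-sided p below 0.1. Members and lists were chosen with earlier results of these data known, so nothing was tested over a list. The text names all members and most, but not all, of a fixed set of neighbours. From each list it names up to 4 genes with the smallest p over the 3 groups. It also names up to 3 genes per pattern for Igf1, Igfbp1 and Socs2, and genes of small counts, the last named after their values were seen. The further lists were receptor and STAT5 genes, negative regulators, IGF ligands and receptors, IGF binding proteins, their proteases (1 of 7 tested, Mmp7, higher by 2.81 in BDL than in sham, adjusted p 8.6e-05), growth hormone regulated transcription factors, male-biased and female-biased genes (1 female-biased gene is not reported here), and genes linked to growth hormone resistance. Promoters came from RefSeq (GRCm38.p6), another build than the table's, so genes were matched by symbol and no coordinates were converted. Alternatives were pseudocounts of 0.1 and 0.5 FPKM, a filter on the mean (5 FPKM), no filter, median-of-ratios scaling, TPM, quantile normalization, robust eBayes, the 2 groups alone, a replicate block, voom, and each library left out.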

Additional observations from a re-analysis of the deposited data

How the results depend on the processing

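Over the alternatives, 540 of the members' values kept their direction and their side of the threshold, 14 passed it newly, 14 missed it newly and 23 turned direction. None of the turned values was called in the main test. With 1 library left out, Bcl6 ranged over -0.64 to 0.16 between BDL+LIG and BDL and -1.48 to 0.0046 between BDL and sham, Igfbp2 over -0.31 to 0.15 between BDL+LIG and sham, and Socs2 over -0.17 to 0.25 between BDL and sham. Igfals was at -0.10 between BDL+LIG and BDL under median-of-ratios scaling, and Igfbp2 at 0.20 and 0.23 between BDL+LIG and sham under quantile and TPM scaling. Under median-of-ratios and quantile scaling, Socs2 was at -0.12 and -0.17 and Stat5b at -0.14 and -0.10 between BDL and sham, and Stat5a at -0.011 and -0.089 between BDL+LIG and BDL, -0.067 and -0.092 between BDL and sham and -0.078 and -0.18 between BDL+LIG and sham. Genes called between BDL+LIG and BDL numbered 1194, and 575 with a mean of at least 5 FPKM, 630 with median-of-ratios scaling, 623 without a filter, 1926 with TPM, 3433 in the 2 groups alone and 0 to 3144 with 1 library left out. Without BDL 2 limma called 0 (2317 at an unadjusted p under 0.05), without BDL 1 and 3 it called 40 and 54, without BDL+LIG 2 and 3 289 and 322, without BDL+LIG 1 716 and without sham 1 3144. Axis members called there were 1, and 0 with median-of-ratios and with quantile scaling (3 at an unadjusted p under 0.05 in limma with each, and 1 called by voom), 2 with TPM, 3 in the 2 groups alone and 0 to 3 with 1 library left out. Between BDL and sham 1838 genes were called with a mean of at least 5 FPKM and 1894 to 4668 with 1 library left out (4668 without sham 1, 1902 without BDL 2 and 1894 without BDL 3), against 3008. Between BDL+LIG and sham 2765 were called with a mean of at least 5 FPKM and 4505 to 6922 with 1 library left out, against 5335. The share of higher calls between BDL+LIG and BDL, between BDL and sham and between BDL+LIG and sham was 50.8, 55.6 and 52.9% with quantile normalization and 94.9, 82.7 and 91.3% with TPM. The filter on the mean left fewer genes to test, and leaving 1 library out gave fewer calls in some fits and more in others. The cause of these differences was not tested.

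The labels give the replicate numbers no shared origin. Deviations of same-numbered libraries correlated at 0.25 and 0.28 for libraries 1 and 3 of BDL+LIG and sham, the highest of all pairs, and at -0.13 to 0.11 for the other same-numbered pairs. Not every library correlated best with its own number, and the numbers were not taken as pairs. With the replicate number as a block, 742 genes and 2 members (Stat5b, adjusted p 0.0498, and Igfbp1, adjusted p 0.042) were called between BDL+LIG and BDL. Values rest on 3 libraries a group and on FPKM, whose scale depends on the most abundant transcripts.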
